A study of Mus musculus with 6 samples.

Results

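The genes described here encode the organic ion and drug transporters of 4 families, taken from the mouse kidney transcriptome as every gene symbol that starts with Slc22a, Slco, Slc47a or Abcc. The rule found 53 of the 24346 symbols measured, 26 of them Slc22a, 15 Slco, 2 Slc47a and 10 Abcc. Kidney RNA of the C57BL/6 strain was sequenced in 6 libraries, 3 from mice with the operation named IVCC and 3 from mice with Sham surgery. Renal congestion is the subject of the series, whose title also names acute kidney injury, but the labels give neither an injury nor a drug for these 6 libraries. What IVCC stands for is not in the labels, and age, sex, time after surgery and whether each library is a separate animal are not stated either, so the spread below is that between libraries. The set was selected on the same FPKM values, because several Slc22a genes were lower in IVCC, so the differences between the groups are a description of the members and were not used as a test.

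Kidneys clear drugs, toxins and metabolic end products by carrying them across the cells of the proximal tubule. On the blood side, SLC22 carriers take up organic anions in exchange for dicarboxylates and organic cations along the membrane voltage. On the urine side, MATE exchangers (Slc47a) and ATP-driven ABCC pumps release them, and other SLC22 carriers take urate, carnitine and nicotinate back. OATP carriers (Slco) move larger amphipathic molecules such as steroid conjugates, prostaglandins and thyroid hormones. Several of these genes lie next to each other in the genome as tandem copies, so sequence likeness between neighbours bears on how their reads can be told apart.

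The upstream sequences of 5 Slc22a genes are shown because 3 of them, Slc22a19, Slc22a26 and Slc22a13, had lower values in every IVCC library than in any Sham library, whereas the other 2, Slc22a28 and Slc22a30, are near copies of each other from the same gene row as Slc22a19 and Slc22a26. RefSeq on GRCm38.p6, the assembly that mm10 names, had a promoter for 42 of the 53 members. It had none for Slc22a7, whose IVCC values also all lay below its Sham values, so that gene could not be searched. Each sequence is the 250 bases before the annotated start, read 5′ to 3′ along the gene, which lies on the minus strand in all 5 cases. Capitals mark matches to TTCNNNGAA, the element bound by STAT5 and BCL6, or to AGAACA on either strand. AGAACA is only a part of the element of androgen and glucocorticoid receptors.
Slc22a19: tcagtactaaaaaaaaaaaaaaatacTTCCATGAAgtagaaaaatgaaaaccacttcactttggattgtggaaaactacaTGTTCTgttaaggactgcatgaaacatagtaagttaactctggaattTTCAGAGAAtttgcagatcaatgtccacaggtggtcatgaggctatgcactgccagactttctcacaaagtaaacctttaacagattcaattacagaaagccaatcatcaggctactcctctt
Slc22a26: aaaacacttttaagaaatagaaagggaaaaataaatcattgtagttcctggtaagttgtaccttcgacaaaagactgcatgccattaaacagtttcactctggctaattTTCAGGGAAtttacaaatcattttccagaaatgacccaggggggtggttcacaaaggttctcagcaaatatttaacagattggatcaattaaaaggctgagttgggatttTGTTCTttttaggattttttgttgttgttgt
Slc22a28: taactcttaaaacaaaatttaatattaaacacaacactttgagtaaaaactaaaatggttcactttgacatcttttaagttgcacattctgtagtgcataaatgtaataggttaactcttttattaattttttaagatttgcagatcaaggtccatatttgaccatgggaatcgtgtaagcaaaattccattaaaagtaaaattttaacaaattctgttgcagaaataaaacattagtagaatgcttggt
Slc22a30: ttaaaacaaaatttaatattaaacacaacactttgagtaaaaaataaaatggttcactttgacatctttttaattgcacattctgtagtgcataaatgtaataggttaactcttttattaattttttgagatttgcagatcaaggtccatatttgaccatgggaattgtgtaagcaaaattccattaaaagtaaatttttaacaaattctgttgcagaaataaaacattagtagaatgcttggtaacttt
Slc22a13: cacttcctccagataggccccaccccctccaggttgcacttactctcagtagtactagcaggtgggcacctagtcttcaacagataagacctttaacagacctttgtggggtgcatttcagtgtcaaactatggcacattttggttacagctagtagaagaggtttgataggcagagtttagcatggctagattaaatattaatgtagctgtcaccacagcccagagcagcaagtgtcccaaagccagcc
They lie at chr19:7711311-7711560 for Slc22a19, chr19:7802668-7802917 for Slc22a26, chr19:8131983-8132232 for Slc22a28, chr19:8405106-8405355 for Slc22a30 and chr9:119209106-119209355 for Slc22a13. TTCNNNGAA matched at 2 places in Slc22a19 (TTCCATGAA and TTCAGAGAA) and at 1 in Slc22a26 (TTCAGGGAA), and AGAACA matched once in each on the opposite strand. Of the 4 motifs searched on both strands, the others being CAAAGTCCA (HNF4) and TATAAA, none was found in the windows of Slc22a28, Slc22a30 or Slc22a13. Over all 32851 promoters, 7.02% held TTCNNNGAA, 16.1% AGAACA, 0.384% CAAAGTCCA and 12.4% TATAAA. Of the 27 members measured at 1 FPKM or more that had a promoter, 4 held TTCNNNGAA, 7 AGAACA, 0 CAAAGTCCA and 3 TATAAA. A member counted when any of its promoters matched, whereas the shares over all 32851 are per promoter, so these are unlike units. The matched motifs did not overlap each other in these windows. A match is a match of letters only, and no binding was measured. Among these 27 members, TTCNNNGAA also matched in Abcc5 and Slco2b1, whose log2 differences, IVCC minus Sham, were 0.06 and 0.11. AGAACA also matched in Abcc4 (0.35), Slco2b1 (0.11), Slc22a18 (-0.12), Slc22a22 (-0.15) and Slco4c1 (-0.20). Whether the motifs bear on the levels was not tested. The windows of Slc22a28 and Slc22a30 were identical at 95.2% of 250 bases after global alignment, whereas the median over the 45 pairs among 10 Slc22a promoters compared in this way was 58.4% (lowest 52.8%).

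Levels are given in FPKM, fragments counted per library size and per length of transcript, which allows genes to be set side by side. All markers of the proximal tubule fixed for the check were measured, and summed to between 14074 and 17247 FPKM in the IVCC libraries and between 14620 and 18848 FPKM in the Sham libraries. Xist was listed at 0 to 0.012 FPKM and the Y-linked gene Eif2s3y at 40.3 to 49.1 FPKM in the 6 libraries. Column sums of the FPKM ran from 719896 to 1118258, and the libraries numbered 3 have the highest sum in both groups. Read totals are not part of such values; the spacing of the lowest values gave nominal library sizes that were each larger in IVCC, from 8200000 to 9120000 reads, than in Sham, from 6120000 to 7160000.

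Of the 53 members, 34 averaged 1 FPKM or more over the 6 libraries and entered the fit across all genes. These were 19 Slc22a, 7 Slco, 1 Slc47a and 7 Abcc genes. Of the 19 below, 8 were listed at 0 in every library (Slc22a16, Slc22a20, Slco1a5, Slco1c1, Slco5a1, Slco6b1, Slco6c1 and Slco6d1). The remaining 11 never exceeded 0.667 FPKM (Slco1a4, Slc22a27, Abcc3, Slc22a15, Slc47a2, Slc22a13b-ps, Slc22a14, Slc22a3, Slco1b2, Abcc8 and Abcc12). Slc47a2, the second MATE gene, was listed at 0.111, 0.054 and 0.1 FPKM in IVCC, against 0.327, 0.317 and 0.149 in Sham, all too low to be fitted. Just above the limit of 1 FPKM stood Slc22a21 with a mean of 1.14 FPKM, and just below it Slco1a4 with 0.432 FPKM.

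Transporter expression was concentrated in a few genes. The 7 highest members held 76.6% of the summed level of all 53, and Slc22a12 alone held 24.2%. In order of their means, these included Slc22a12 (1068 FPKM), Slc22a18 (521), Slc22a6 (444), Slc47a1 (392), Slc22a8 (341) and Slc22a2 (281), followed after a gap by Slco1a6 (124). Only 3 of the 33 steps between neighbours in the order separated genes whose ranges over the 6 libraries did not overlap: from Slc22a12 to Slc22a18, from Slc22a2 to Slco1a6, and from Slc22a23 to Abcc5. Elsewhere, the ranges of neighbours overlapped. Ranges do not compare genes within a library, so overlap does not mean equal levels. Slc22a18, for example, exceeded Slc22a6 in each of the 6 libraries.

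**Figure D1:**
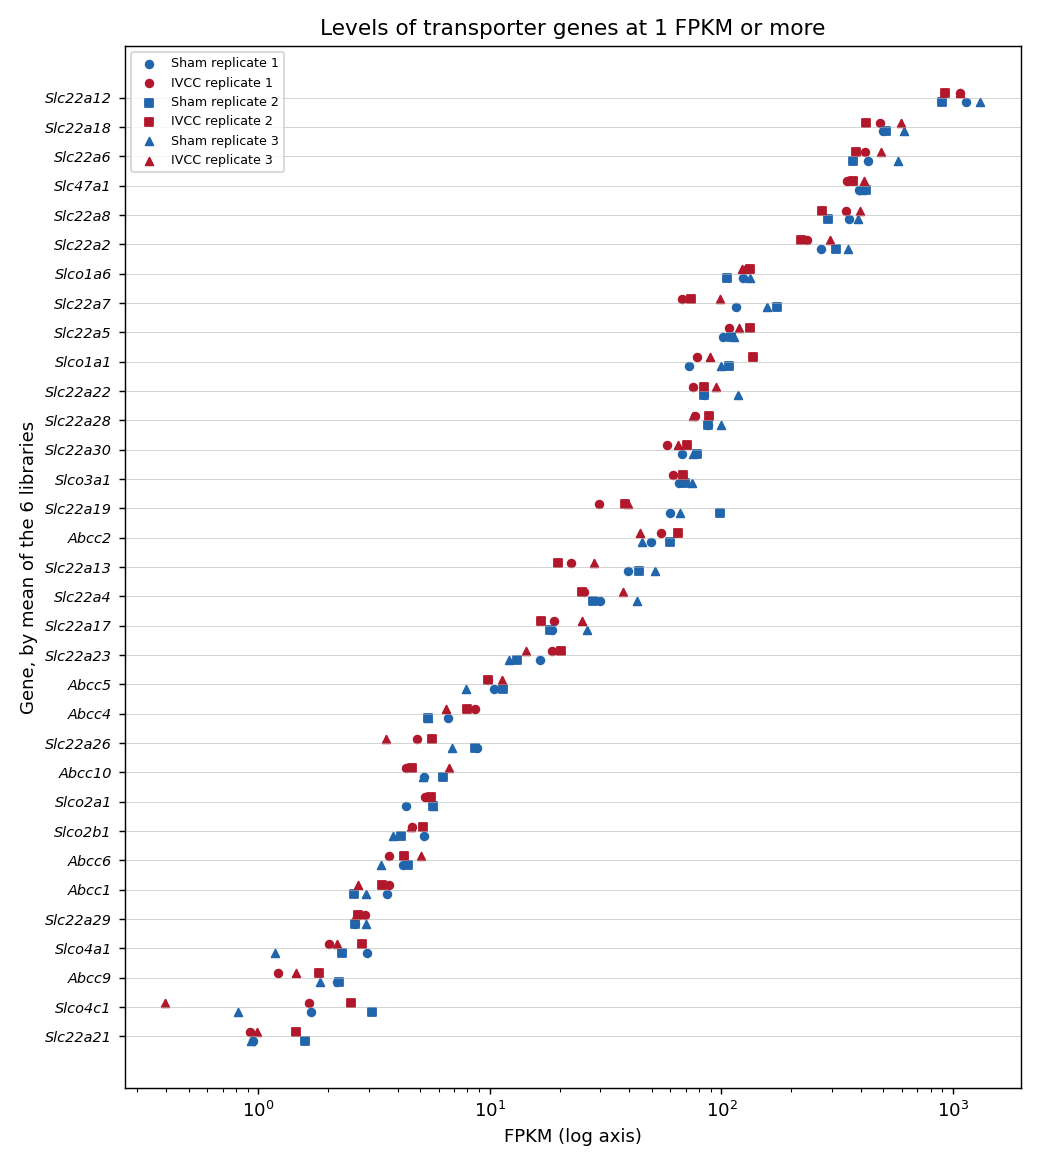
FPKM per library on a log axis for 33 of the 34 transporter genes that averaged 1 FPKM or more, ordered by their mean over the 6 libraries; colours mark the groups and symbols the replicate number. Slc22a12 lies highest, 6 of the genes drawn lie above 200 FPKM, and the red and blue points of Slc22a7, Slc22a19, Slc22a13 and Slc22a26 stand apart.

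Across the 4 families, the differences between IVCC and Sham were small for most members and large for 4 organic anion carriers of the Slc22a family. The 4 were Slc22a19, Slc22a13, Slc22a7 and Slc22a26, whose mean FPKM in IVCC were 0.478, 0.520, 0.538 and 0.579 times those in Sham. Fitted values were lower in IVCC for 21 of the 34 members and higher for 13, with a median log2 difference of -0.07, where 51.6% of all 12090 genes tested were lower, 48.4% were higher and the median was -0.01. No gene passed: limma (lmFit and eBayes with a mean-variance trend) called 0 of 12090 genes at an adjusted p under 0.05 (0% called), hence 0 members, and 431 genes at an unadjusted p under 0.05. At that unadjusted level stood 4 members lower (background 1.87% of genes) and 1 higher (background 1.7%). All 3 IVCC values lay below all 3 Sham values for 5 of the 34 members, where 4.22% of all genes did so. They lay above them for 0 of the 34, where 4.09% of genes did so. Since the set was proposed from this contrast, nothing is read from these counts. In whole kidney RNA, fewer cells of a type and less RNA per cell cannot be told apart.

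**Figure D2:**
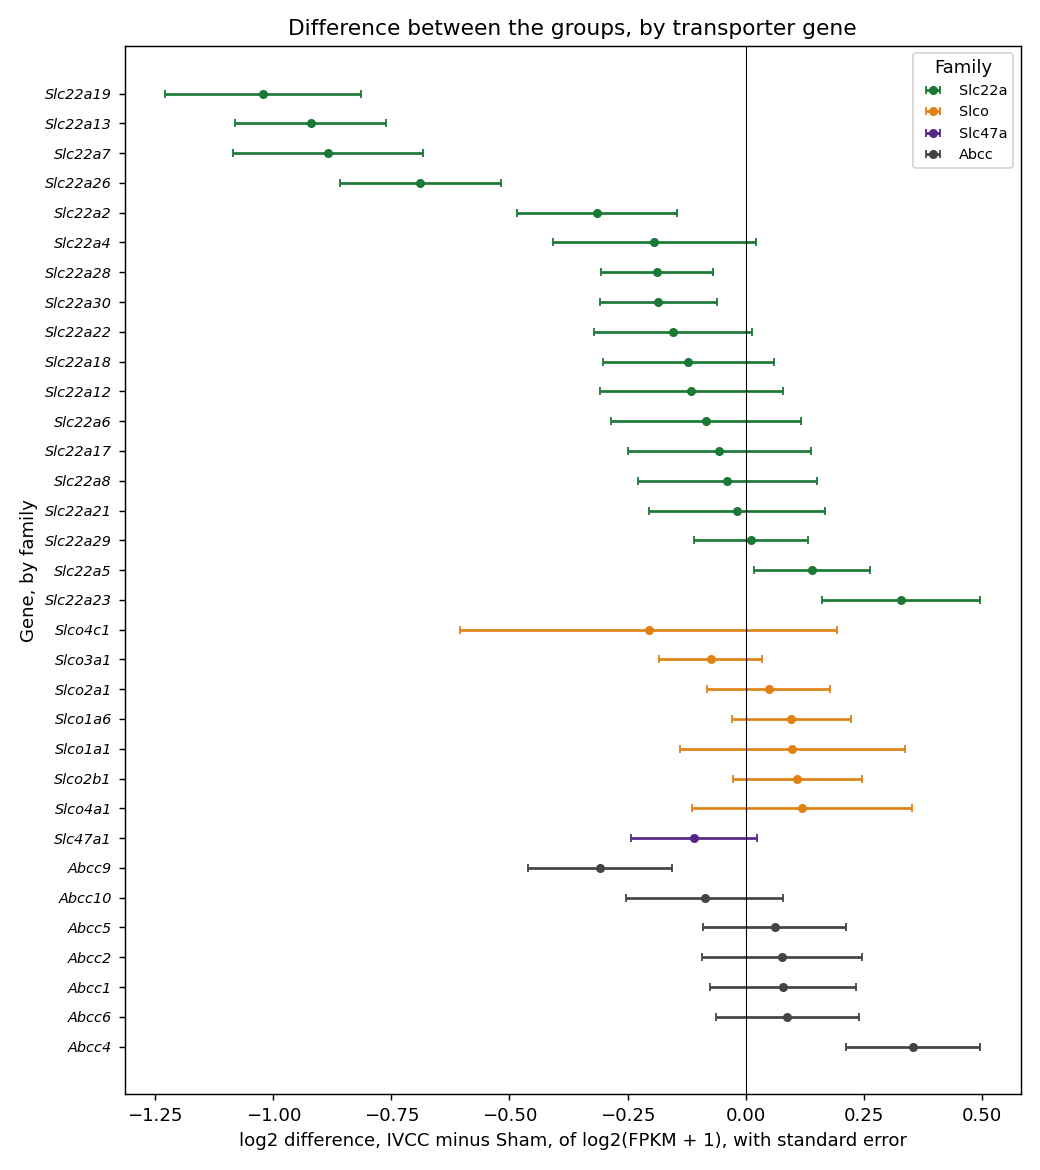
Log2 difference, IVCC minus Sham, on the log2(FPKM + 1) scale for 33 of the 34 transporter genes by family, with limma's standard error. The 4 lowest points, from -1.02 to -0.69, are all Slc22a genes, and the highest is Abcc4 at 0.35.

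Among the carriers of organic anions and urate, 10 of 11 members at 1 FPKM or more had lower fitted values in IVCC, with a median log2 difference of -0.18, where 51.6% of all genes were lower. The count fell to 6 of 11 without Sham replicate 3 (median -0.13) and to 6 of 11 after scaling to a constant sum (median -0.01). With all libraries, 4 of the 11 showed no overlap between the groups, where 4.22% of all genes had every IVCC value below every Sham value. Slc22a7 (chromosome 17, 46432183 to 46438457, minus strand, GRCm38) encodes OAT2, a carrier of small organic anions. It stood at 67.4, 74.0 and 98.7 FPKM in IVCC, against 115.8, 172.9 and 157.5 in Sham. The lowest Sham library was 1 and the highest IVCC library was 3, and the groups were separate. The log2 difference was -0.88 with a standard error of 0.20.

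Slc22a19 (chromosome 19, 7673061 to 7711310, minus strand) encodes OAT5, which carries sulfated steroids and other anions. Its values were 29.6, 38.3 and 39.7 FPKM in IVCC, against 59.7, 98.8 and 66.5 in Sham, so that the IVCC libraries lay close together and Sham replicate 2 stood above its group. With all libraries this was the largest difference of the 34, a log2 difference of -1.02 with a standard error of 0.21. Without Sham replicate 2 it was -0.81, against -0.93 for Slc22a13, and without IVCC replicate 1 it was -0.89, against -0.90 for Slc22a13. Its neighbour Slc22a26 (chromosome 19, 7781041 to 7802667, minus strand), a little-studied relative, was expressed at lower levels. Slc22a26 stood at 4.83, 5.65 and 3.55 FPKM in IVCC, against 8.75, 8.65 and 6.85 in Sham. Again no IVCC library reached any Sham library, with a log2 difference of -0.69 and a standard error of 0.17, which became -0.44 with a pseudocount of 5 in place of 1. Its order of libraries differed from that of Slc22a19: replicate 3 was the lowest in both groups.

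Slc22a13 (chromosome 9, 119192974 to 119209098, minus strand) encodes OAT10, an exchanger of urate and nicotinate at the urine side. It stood at 22.5, 19.8 and 28.1 FPKM in IVCC, against 39.5, 44.2 and 51.5 in Sham. The groups were separate, with a log2 difference of -0.92 and a standard error of 0.16. Of the 75-base stretches of its transcript, 28.7% also occur in the transcript of its neighbour Slc22a13b-ps, a pseudogene listed at 0 to 0.290 FPKM. The annotated span of Slc22a14, itself at or below 0.277 FPKM, includes Slc22a13 on the same strand.

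**Figure D3:**
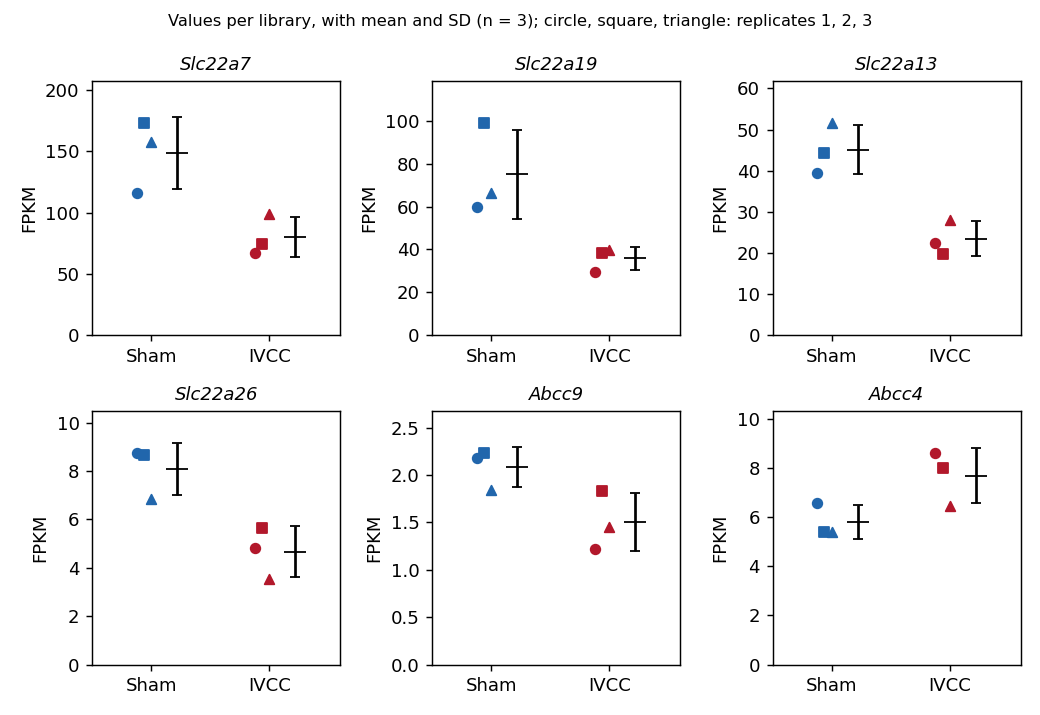
FPKM per library, with group mean and SD (n = 3), for the 5 fitted members whose groups do not overlap and for Abcc4. The log2 difference of Abcc4, 0.35, was the highest of the fitted members with all libraries. In Slc22a7, Slc22a19, Slc22a13, Slc22a26 and Abcc9 every IVCC point lies below every Sham point, whereas for Abcc4 the lowest IVCC point lies just under the highest Sham point.

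The most abundant anion carriers differed by far less than these 4. Slc22a12 (chromosome 19, 6535845 to 6543032, minus strand) encodes URAT1, which takes urate back from the urine. It stood at 1069, 923 and 1068 FPKM in IVCC, against 1141, 899 and 1305 in Sham, with a log2 difference of -0.12 and a standard error of 0.19. Slc22a6 encodes OAT1, the classical uptake carrier of para-aminohippurate on the blood side. Its values were 417, 381 and 486 FPKM in IVCC, against 429, 369 and 580 in Sham, fully overlapping. Slc22a8, which encodes OAT3 on the same membrane, stood at 344, 271 and 396 FPKM in IVCC, against 357, 289 and 388 in Sham. For all 3 genes replicate 2 was the lowest library of each group, and the difference between replicates exceeded that between the groups. The log2 differences of Slc22a6 and Slc22a8 were -0.08 and -0.04 with standard errors of 0.20 and 0.19.

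Of the other anion carriers, the prostaglandin carrier gene Slc22a22 averaged 84.8 ± 9.77 FPKM in IVCC, against 95.2 ± 19.3 in Sham (SD, n = 3 each). Slc22a28 averaged 80.2 ± 7.06 and 91.5 ± 6.69 FPKM, and Slc22a30 64.8 ± 6.37 and 73.7 ± 5.87 FPKM. Slc22a28 and Slc22a30, whose promoters are shown above, also had nearly equal differences, at -0.19 and -0.18 on the log2 scale. However, 44.2% of the 75-base stretches of the Slc22a28 transcript occur in that of Slc22a30 as well, and 27.8% of those of Slc22a30 in that of Slc22a28, so reads of this length cannot always be assigned and the values of both are uncertain. Slc22a29 averaged 2.74 ± 0.131 and 2.72 ± 0.171 FPKM and was the only anion carrier with a fitted value above 0, at 0.01. It shares 17.3% of its 75-base stretches with other genes, chiefly Slc22a27. In contrast, Slc22a26 and Slc22a19 share only 2.99% and 1.46%, and none of Slc22a7 occurs in another gene.

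Slc22a19, Slc22a26, Slc22a27, Slc22a28, Slc22a29, Slc22a30, Slc22a8 and Slc22a6 form a row on chromosome 19 from 7673061 to 8628299. The 2 genes at its left end, Slc22a19 and Slc22a26, had log2 differences of -1.02 and -0.69, and the 5 others measured lay between -0.19 and 0.01. Slc22a7 and Slc22a13 lie on other chromosomes. Beside Slc22a7 lies the pump gene Abcc10, at 5.22 ± 1.27 FPKM in IVCC, against 5.54 ± 0.615 in Sham.

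**Figure D4:**
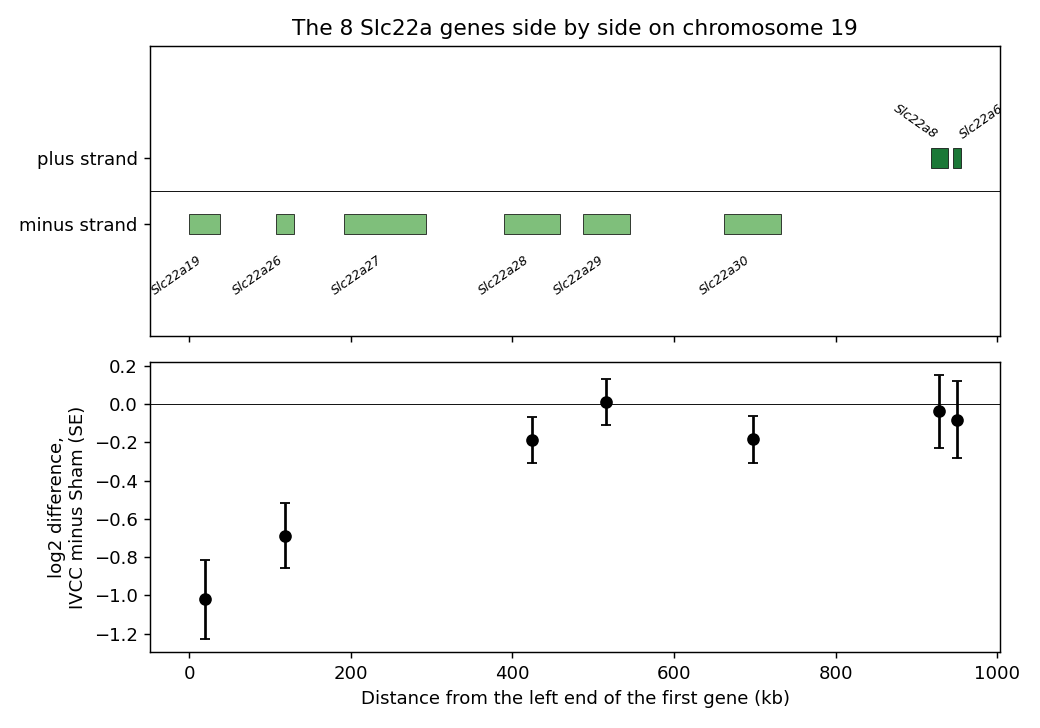
The 8 Slc22a genes of the chromosome 19 row drawn to scale by distance in kb (upper panel, strand on the vertical axis) with the log2 difference, IVCC minus Sham, and its standard error for the 7 that were fitted (lower panel). The 2 leftmost genes lie at -1.02 and -0.69 and the other 5 between -0.19 and 0.01.

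Slc22a2 and Slc47a1, genes of organic cation uptake and exit, were expressed at high levels with overlapping groups. Slc22a2 encodes OCT2, a cation uptake carrier of the blood side. It stood at 235, 221 and 295 FPKM in IVCC, against 268, 312 and 354 in Sham. Only IVCC replicate 3 reached into the Sham range, and the log2 difference was -0.31 with a standard error of 0.17. Slc47a1 (chromosome 11, 61343401 to 61378345, minus strand) encodes MATE1, which exchanges cations for protons at the urine side. It stood at 349, 371 and 412 FPKM in IVCC, against 392, 421 and 406 in Sham, a log2 difference of -0.11 with a standard error of 0.13.

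Among the carnitine and zwitterion carriers, Slc22a5, which encodes the carnitine carrier OCTN2, stood at 107.9, 132.4 and 118.8 FPKM in IVCC, against 101.4, 110.4 and 112.9 in Sham. It was 1 of 3 Slc22a genes with a higher fitted value in IVCC, a log2 difference of 0.14 with a standard error of 0.12. Slc22a4, which encodes the ergothioneine carrier OCTN1, averaged 29.3 ± 7.05 and 33.7 ± 8.37 FPKM. Slc22a21 averaged 1.12 ± 0.289 and 1.154 ± 0.371 FPKM and shares 15.9% of its 75-base stretches with Slc22a5, so its low value is uncertain. Slc22a18, an imprinted gene whose cargo is poorly defined, stood at 482, 422 and 598 FPKM in IVCC, against 497, 511 and 617 in Sham. The orphan gene Slc22a23 averaged 17.7 ± 3.04 and 13.9 ± 2.33 FPKM, with a log2 difference of 0.33 and a standard error of 0.17. Slc22a17, which encodes a receptor for the iron-carrying protein NGAL, averaged 20.1 ± 4.32 and 20.98 ± 4.56 FPKM.

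The Slco genes showed no common direction. Of 7 at 1 FPKM or more, 5 had higher and 2 lower fitted values in IVCC, with a median log2 difference of 0.10 that became -0.06 without Sham replicate 1. Slco1a6, the most abundant, stood at 129.4, 132.7 and 122.8 FPKM in IVCC, against 123.5, 105.2 and 132.5 in Sham. Slco1a1, a carrier of bile salts and steroid conjugates, averaged 101.7 ± 31.4 and 93.4 ± 18.5 FPKM, and Slco3a1 66.2 ± 3.72 and 69.8 ± 4.51 FPKM. Slco2a1, which encodes the prostaglandin transporter, averaged 5.40 ± 0.145 and 5.22 ± 0.766 FPKM, and Slco2b1 4.77 ± 0.303 and 4.38 ± 0.730 FPKM. The groups overlapped for every Slco gene.

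The 2 Slco genes with the widest ratio of highest to lowest library, 7.80 for Slco4c1 and 2.50 for Slco4a1, varied within the groups. Slco4c1 (chromosome 1, 96816270 to 96872171, minus strand) encodes the kidney's organic anion polypeptide for digoxin and thyroid hormone. It stood at 1.66, 2.51 and 0.396 FPKM in IVCC, against 1.69, 3.09 and 0.815 in Sham, so that replicate 2 was the highest and replicate 3 the lowest in both groups. Its within-group SD of 0.64 on the log2 scale exceeded that of 98.3% of the genes tested. Slco4a1, a thyroid hormone carrier gene, stood at 2.01, 2.80 and 2.18 FPKM in IVCC, against 2.95, 2.30 and 1.18 in Sham. By contrast, Slco3a1 and Slc47a1 were among the least variable, with a within-group SD above that of only 9.22% and 10.9% of genes.

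Of the 6 ABCC efflux pumps at 1 FPKM or more, 5 had higher fitted values in IVCC, with a median log2 difference of 0.08, and the groups overlapped for all 6. The direction of the list turned without Sham replicate 3, where 2 of 6 were higher and the median was -0.01, and 3 of 6 were higher without IVCC replicate 3 or without both libraries numbered 3. Abcc2, which encodes the urine-side pump MRP2 for glutathione and glucuronide conjugates, averaged 54.8 ± 10.3 FPKM in IVCC, against 51.6 ± 7.29 in Sham. Abcc4 (chromosome 14, 118482692 to 118706219, minus strand) encodes MRP4, a urine-side pump of urate, cyclic nucleotides and drug anions. Abcc4 averaged 7.69 ± 1.11 and 5.78 ± 0.694 FPKM, a log2 difference of 0.35 with a standard error of 0.14, the highest of the 34 with all libraries. Slc22a23 stood above it with a pseudocount of 5 (0.26 against 0.23), after quantile normalization (0.34 against 0.32), and without IVCC replicate 1 (0.29 against 0.28), IVCC replicate 3 (0.47 against 0.46) or Sham replicate 1 (0.45 against 0.44). The low-level pump genes Abcc5 (10.3 ± 0.872 and 9.91 ± 1.83 FPKM), Abcc6 (4.33 ± 0.704 and 4.01 ± 0.558 FPKM) and Abcc1 (3.26 ± 0.510 and 3.03 ± 0.507 FPKM) differed by less than their spread.

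Abcc9 is a member by its name but encodes SUR2, a regulatory subunit of ATP-sensitive potassium channels in muscle and mural cells. Abcc9 (chromosome 6, 142587862 to 142702315, minus strand) stood at 1.22, 1.83 and 1.45 FPKM in IVCC, against 2.18, 2.23 and 1.84 in Sham. The groups did not overlap, by a margin of under 0.1 FPKM, and the log2 difference was -0.31 with a standard error of 0.15. At this low level the difference moved with the pseudocount, to -0.46 at 0.1 and -0.13 at 5. An antisense gene overlaps it, and whether the counting used strand is not stated. Genes on the opposite strand overlap other members too, among them Slc22a12, which lies within the span of Nrxn2.

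By family, the median log2 difference was -0.12 over 19 Slc22a genes, -0.11 for Slc47a1, 0.10 over 7 Slco genes and 0.08 over 7 Abcc genes, and the order of the families changed without Sham replicate 3, where it was -0.004, -0.11, 0.03 and -0.01. With all libraries 16 of 19 Slc22a genes were lower in IVCC, but 10 of 19 were lower without Sham replicate 3 and 8 of 19 after scaling to a constant sum, where the median turned to 0.06. That scaling moved the median of all genes from -0.01 to 0.15. The 4 genes named above had log2 differences between -0.55 and -0.85 after it, between -0.44 and -0.95 with a pseudocount of 5, and between -0.54 and -1.17 with any 1 library left out. The summed level of the Slc22a family was 3429 ± 363 FPKM in IVCC, against 3830 ± 524 in Sham, a difference smaller than the spread in Sham. The sums of the Slco family were 310.7 ± 38.7 and 297.7 ± 21.1 FPKM, and those of the Abcc family 87.4 ± 9.55 and 82.3 ± 9.97 FPKM.

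Replicate 3 was the highest library of both groups for 9 of the 34 members (26.5%), against 32.4% of all genes tested. All 9 were Slc22a genes, out of 19 fitted, and 5 of them were among the 7 members above 200 FPKM, of which Slc22a12 and Slc47a1 were not. Without Sham replicate 3 the Slc22a median was -0.004, and without both libraries numbered 3 it was -0.08 with 14 of 19 genes lower.

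Markers of the first and last segments of the proximal tubule, S1 and S3, were measured beside these genes, and the summed levels of both lists overlapped between the groups. All 5 S1 markers had higher fitted values in IVCC, with a median log2 difference of 0.32 and a summed level of 582 to 692 FPKM in IVCC and 462 to 584 FPKM in Sham. Slc6a19, a neutral amino acid carrier gene of S1, averaged 129.8 ± 23.0 FPKM in IVCC, against 89.9 ± 7.71 in Sham without overlap. Of the 7 S3 markers 6 had lower fitted values, with a median of -0.25 and a summed level of 3272 to 4712 FPKM in IVCC and 3830 to 5361 FPKM in Sham. None of the 12 passed the adjustment over all genes in limma, and no S1 or S3 marker was listed at 0.

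Cyp7b1, an S3 gene for an oxysterol hydroxylase that is also known to depend on androgen, stood at 51.0, 64.7 and 91.4 FPKM in IVCC, against 97.0, 187.6 and 171.2 in Sham. The 6 libraries had the same order for Cyp7b1 as for Slc22a7 and Slc22a19, with IVCC replicate 1 lowest and Sham replicate 2 highest. The order differed for Slc22a13 (IVCC replicate 2 lowest, Sham replicate 3 highest) and Slc22a26 (IVCC replicate 3 lowest, Sham replicate 1 highest). These orders were not tested. The S3 gene Slc5a1, by contrast, averaged 24.7 ± 0.667 and 24.0 ± 0.159 FPKM, with every IVCC value above every Sham value. Of 10 androgen-regulated kidney genes, which include Cyp7b1 and another S3 marker, Slc7a13, 9 had lower fitted values, where 51.6% of all genes were lower. The median of the 10 was -0.18, and the lower ones ran from -1.11 to -0.01. Only Cyp7b1 of the 10 lacked overlap between the groups, and 0 passed the adjustment. Markers of cells outside the tubule were higher in IVCC in fitted value for 5 of 5 podocyte, 6 of 6 endothelial, 5 of 6 fibroblast and 5 of 6 macrophage genes, with medians of 0.63, 0.40, 0.52 and 0.35. Podocyte markers summed to 51.4 to 92.4 FPKM in IVCC, against 42.5 to 44.7 in Sham, endothelial ones to 91.2 to 103.4, against 79.0 to 88.6, fibroblast ones to 42.5 to 48.5, against 33.8 to 39.6, and macrophage ones to 76.0 to 93.3, against 67.7 to 76.7. Of the markers of the whole proximal tubule 8 were higher and 7 lower, of the thick ascending limb 2 and 2, of the distal convoluted tubule 2 and 1, and of principal cells 2 and 2. Of the intercalated cell markers 4 were higher and 1 lower, with a median of 0.07. Of 4 fitted markers of tubular injury 1 was higher and 3 were lower, and all 4 fitted hepatocyte markers were lower, from a sum of 161 to 318 FPKM in IVCC, against 218 to 453 in Sham. The part of these markers in the transporter values was not tested.

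**Figure D5:**
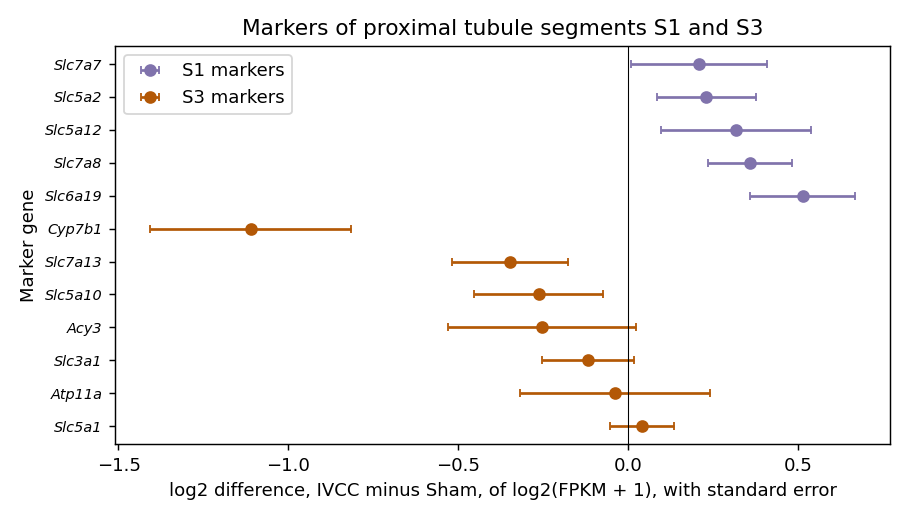
Log2 difference, IVCC minus Sham, with limma's standard error for the 5 markers of the S1 and the 7 of the S3 segment of the proximal tubule. All S1 points lie above 0, and 6 of the 7 S3 points lie below it, Cyp7b1 lowest at -1.11.

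Genes that act with these carriers were taken from lists by function. Of 20 other carriers of drugs, urate, nucleosides, peptides and bile acids at 1 FPKM or more, 9 had higher and 11 lower fitted values in IVCC, with a median of -0.04, and 0 passed the adjustment in either direction. Over all genes tested, every IVCC value lay below every Sham value for 4.22% and above for 4.09%. Slc15a2, which encodes the peptide and beta-lactam carrier PEPT2, was the one gene of the 20 without overlap. It stood at 83.4, 72.2 and 87.3 FPKM in IVCC, against 109.6, 110.4 and 135.1 in Sham, a log2 difference of -0.54 with a standard error of 0.14. Abcg2, which encodes the urate and drug pump BCRP, averaged 287 ± 8.12 and 295 ± 2.68 FPKM. Of 4 genes for PDZ scaffolds, which anchor urine-side carriers, and for a binding partner of PDZK1, 3 had lower fitted values and 0 passed. Pdzk1 averaged 767 ± 61.7 and 859 ± 128 FPKM.

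Of 8 transcription factor genes at 1 FPKM or more that regulate these carriers, 6 had higher and 2 lower fitted values and 0 passed. Hnf4a, a nuclear receptor that sustains proximal tubule carriers, averaged 230.9 ± 27.3 and 229.2 ± 9.05 FPKM. The groups overlapped for all 8. Nr1i3 was listed at 0 in every library.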

How the data were processed

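Total RNA of mouse kidney was isolated for 6 libraries with TRIzol and columns, and stranded mRNA libraries were read as single ends of 75 bp, per the labels' protocols. The values are FPKM as deposited by the authors in 1 table. The submitters' processing notes name Cufflinks 2.2.1, TopHat2 2.0.13, SAMtools 0.1.19 and Bowtie2 2.2.3 beside the build mm10, but no role for any. The annotation, filters, strand setting and scaling between libraries: not given in the sources used here.

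Groups and replicate numbers came from the titles. The 12090 of 24346 genes that averaged 1 FPKM or more were compared on log2(FPKM + 1) in R 4.3.3 by limma 3.58.1 with lmFit and the trended eBayes, two-sided, with Benjamini-Hochberg adjustment over all of them at 0.05. Fold changes on this scale understate those of low genes. The fit was tested on simulated data. No exact permutation test was run, since 0.1 is the smallest p that 3 libraries against 3 allow.

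Depth was sought in the spacing of values below 0.1 FPKM for transcripts of 1500 to 5000 bases. With a tolerance of 0.1 read, only 60.1% to 64.0% of these values were whole multiples of 1 read at an assumed fragment length of 200 bases, so the library sizes are nominal and no count test was run. Shared 75-base stretches were counted on the sense strand over GENCODE M21 transcripts, using the longest transcript of each member. Gene positions (GRCm38) also come from GENCODE M21.

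The members, the role groups and the lists were chosen with earlier results of these data known. Every member is named but 1, which is counted but not reported here. Values per library are given for fitted members that are among the 10 highest, show no overlap, have a log2 difference of at least 0.5 in size, or vary at least 2-fold over the libraries. From the other lists, genes without overlap or with the smallest p were named, and further ones (Slc5a1, Abcg2, Pdzk1, Hnf4a, Nr1i3, Xist and Eif2s3y) were picked after their values were seen. The alternatives tried were pseudocounts of 0.1 and 5, no filter or one at 5 FPKM, 3 scalings, 2 eBayes settings, the replicate number as a block and each library left out. Leaving out both libraries numbered 3 was added after the data had been seen.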

Additional observations from a re-analysis of the deposited data

How the results depend on the processing

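No transporter gene was called by limma at an adjusted p under 0.05 under any of the 17 alternatives run. Over all genes the count of 0 stayed 0 under the 3 scalings, both other pseudocounts, both other filters, both other eBayes settings and the replicate block. It ranged from 0 to 4 with 1 library left out and was 4 without the libraries numbered 3 of both groups; none of these were transporters. The count at an unadjusted p under 0.05, 431, was 780 with no filter, 282 with a filter at 5 FPKM, 2388 with the replicate block, 214 to 1039 with 1 library left out and 1057 without both libraries numbered 3.

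The labels state no pairing by replicate number. Deviations from the group means correlated at -0.11, 0.34 and 0.32 between libraries with the same number 1, 2 and 3. Between libraries with different numbers the correlations ran from -0.37 to 0.07. Whether the numbers mark pairs was not tested. With 1 library of each group per number, the replicate block cannot change a log2 difference (median of all members -0.07), only its error, and it called 0 genes.

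Scaling to a constant sum (TPM) changed the median log2 difference of all members from -0.07 to 0.10, of Slc22a from -0.12 to 0.055, of Slco from 0.10 to 0.24, of Abcc from 0.08 to 0.22 and of Slc47a1 from -0.11 to 0.067, as it raised the median of all genes to 0.15. It changed the sign of 11 of 34 members. Quantile normalization changed that of 9, with a median of 0.013 over all members and 0.064 for Slc47a1, and median ratio scaling that of 0. With 1 library left out, the median of all members ranged from -0.13 (without IVCC replicate 3) to -0.0062 (without Sham replicate 3), of Slc22a from -0.22 to -0.004, of Slco from -0.058 (without Sham replicate 1) to 0.13 and of Abcc from -0.01 to 0.15. Without Sham replicate 3, 10 members changed sign and 5 of 7 Abcc genes were lower, against 2 of 7 with all libraries. Without both libraries numbered 3 the Abcc median was -0.10. Causes were not tested. Slc22a7, Slc22a19, Slc22a13 and Slc22a26 were lower in IVCC under the 3 scalings. Because none of their IVCC values reached any Sham value, no pseudocount and no left-out library could turn the sign of these 4 genes. Nothing is therefore read from their direction under those alternatives. Read depth, known only nominally, limits the low members most.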
